A study of Mus musculus with 6 samples.

Results

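The integrins, laminins and collagens are the matrix receptors of a carcinoma cell and the main structural proteins they hold on to. They were taken from the array by gene symbol alone, as every integrin alpha or beta chain, laminin chain and collagen chain whose probe set carries a single symbol. This gave 67 genes of the 12393 named on the array: 21 integrin, 10 laminin and 36 collagen chains, read by 114 probe sets. For the 33 genes with several probe sets, the one with the highest mean over the arrays stands for the gene. Itgb1bp1, Itgb1bp2, Itgb2l, Itgb3bp and Itgbl1, whose names resemble integrin chains, were left out.

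Expression was measured on 6 arrays from the mouse lung adenocarcinoma lines KPR4, KPR5 and KPR8, of C57/B6-129SvJae background. Each line received ethanol, the vehicle, or 250 nM 4-OH tamoxifen in ethanol 24 h before RNA was collected, with 1 array for each line and treatment. Per the labels the drug switches p53 expression back on, and the design asks what that changes. The labels used here state no allele and do not say whether a line is 1 clone, and no drug-treated line without restorable p53 was included, so effects of the drug and of p53 cannot be told apart. Nothing says that cultures were repeated within a line, so p-values for treatment measure the spread between these 3 lines. Those for differences between lines use the vehicle and the treated array of a line as its replicates, not repeated cultures. Every set of 3 values below is in the order KPR4, KPR5, KPR8.

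Integrins are membrane receptors of an alpha and a beta chain that link the matrix to the cytoskeleton. Laminins are trimers of an alpha, a beta and a gamma chain, and with type IV collagen they build the basement membrane on which epithelia sit. The laminin that holds the Lama3 and Lamb3 chains anchors epithelial cells, and the integrin made of Itga6 and Itgb4 binds it in hemidesmosomes. Fibrillar collagens such as type I are made mostly by fibroblasts.

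The values are log2 expression per probe set, so a difference of 1 is a doubling. As a measure of background, 27 probe sets for Bacillus subtilis transcripts lay between 1.13 and 2.84. Genes at log2 4 or above on at least 3 arrays were tested, 7644 in all, and called means an adjusted p under 0.05 in limma's fit with terms for line and treatment. Of 8 listed p53 targets, chosen with earlier results of these data known, 8 rose, against 10.5% of all genes tested. Cdkn1a, encoding p21, rose by 4.63 ± 0.27 (SE). Of the 7 epithelial markers Cldn4 lay between 4.13 and 7.28, Epcam between 8.89 and 10.75, and Cdh1 and 4 keratins between 11.05 and 13.50. With the drug Cldn4 and Cdh1 rose, by 0.89 ± 0.18 and 0.30 ± 0.10 (limma adjusted p = 0.0032 and 0.046), and Epcam changed by -0.37 ± 0.12 (adjusted p = 0.0462). Their part in the changes below was not tested. Of 7 fibroblast markers 6 stayed under log2 4 on every array, and the mean over the 7 was 3.12 to 3.23 with ethanol and 3.12 to 3.21 with the drug. Endothelial and leukocyte markers were below log2 4 on every array for 5 of 6 each, and the leukocyte gene Ptprc did not exceed 2.05. The others were the endothelial Kdr, at most 4.01, and the leukocyte Cd3e, at 3.53 to 4.37. Of 4 platelet and 4 smooth muscle markers, 3 each stayed under log2 4 on every array. The platelet marker Ppbp read 4.47 to 8.23, with line means up to 3.73 apart, and the smooth muscle marker Myh11 4.18 to 4.73.

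After 4-OH tamoxifen 6 members rose. They were Itgb4, the beta chain of the hemidesmosome integrin, Lama3 and Lamb3, chains of the laminin it binds, Col4a5 and Col18a1, both collagens of basement membranes, and Itgav, the alpha chain of the vitronectin receptors. The changes ran from 0.32 to 1.32 on the log2 scale, and the other 21 tested members were not called. Those tested were 27 of the 67, namely 9 integrins, 7 laminins and 11 collagens, and 2 of each family rose. The 6 became 2 with KPR5 left out, 3 with a gene's probe sets averaged and 0 without the line term. Among all genes tested, 10.5% were called higher, 8.94% lower and 19.5% either way. By limma 0 members were called lower, and 1, Lamc1, was lower at an unadjusted p under 0.05. The median change of the tested members was 0.12, against 0.00 over all genes, and it speaks only for members above the filter. With every named gene tested, 5 of the 67 members were higher and 0 lower, against 5.78% and 4.56% of all genes.

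**Figure D1:**
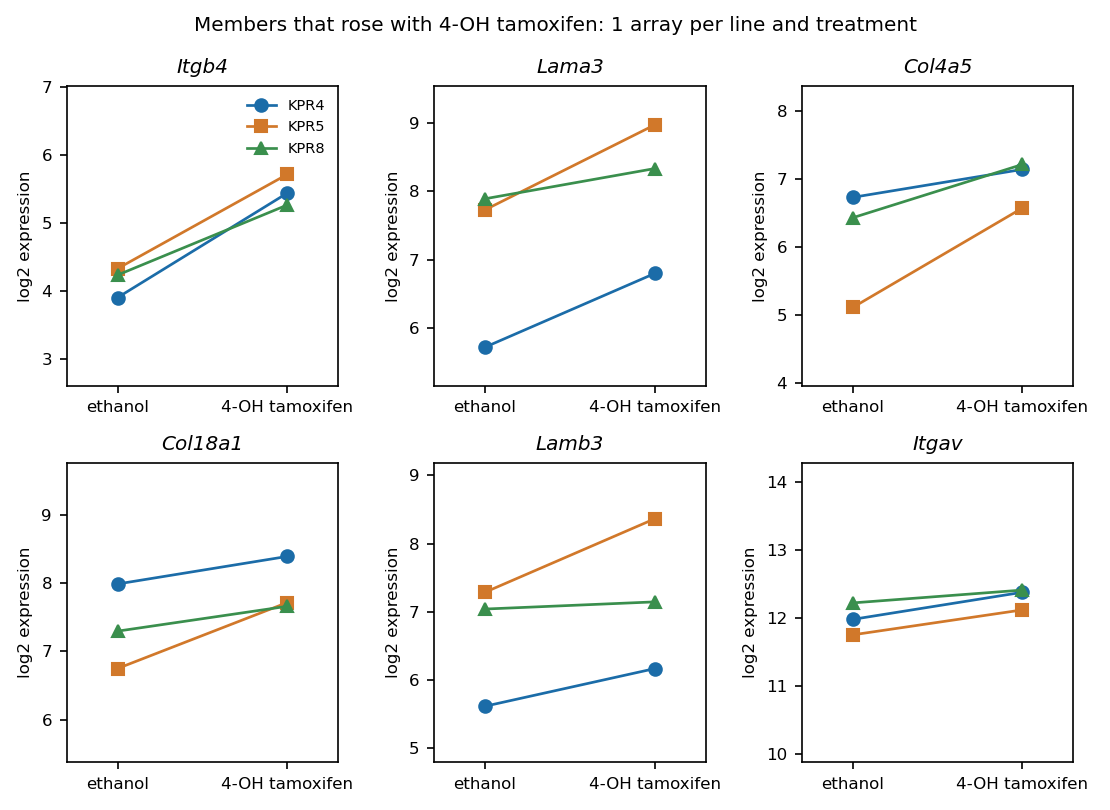
Log2 expression (vertical axis, the same span in every panel) of the 6 members that rose, with ethanol and with 4-OH tamoxifen; each line joins the 2 arrays of 1 cell line. Itgb4 lies between 3.90 and 4.33 with ethanol and between 5.26 and 5.71 with the drug, while Lama3 and Lamb3 lie lower in KPR4 than in the other lines.

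Itgb4, read by 1 probe set, had the largest change of the tested members. Its values were 3.90, 4.33 and 4.23 with ethanol, near the filter level of log2 4, and 5.44, 5.71 and 5.26 with 4-OH tamoxifen. Every treated array was thus above every vehicle array, which held for 1 tested member and for 7.48% of all genes, while the reverse held for 0 members and 8.20% of genes. The mean went from 4.16 ± 0.22 to 5.47 ± 0.23 (SD, n = 3), a log2 change of 1.32 ± 0.16 (SE) or 2.49-fold (limma adjusted p = 5.8e-05). The partner chain Itga6 read 11.81, 12.03 and 11.62 with ethanol and 12.09, 11.96 and 11.35 with the drug. It was not called, at -0.02 ± 0.11 (adjusted p = 0.931), and its changes of 0.28, -0.06 and -0.27 differed in sign between lines.

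Lama3, the alpha chain of the anchoring laminin, read 5.71, 7.73 and 7.89 with ethanol and 6.80, 8.98 and 8.34 with 4-OH tamoxifen. The treatments overlapped because KPR4 was low under both, but within each line the treated array was higher, by 1.08, 1.25 and 0.44. The mean went from 7.11 ± 1.21 to 8.04 ± 1.12 (SD, n = 3), and the change was 0.92 ± 0.18 (SE) or 1.90-fold (limma adjusted p = 0.0022). Lamb3, the beta chain of the same laminin, read 5.61, 7.29 and 7.04 with ethanol and 6.17, 8.37 and 7.15 with the drug, again with KPR4 low under both. It changed by 0.55, 1.08 and 0.11, a mean of 0.58 ± 0.19 or 1.49-fold (adjusted p = 0.0468). The calls of Itgb4 and Lama3 held with any 1 line left out, but that of Lamb3 was lost when KPR4 was left out (0.59, adjusted p = 0.0828) and when KPR5 was (0.33, adjusted p = 0.363).

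The other laminin chains were not called. Lama5, Lamb1 and Lamc1, which together form a laminin of many epithelial basement membranes, changed by 0.13 ± 0.16, 0.10 ± 0.17 and -0.42 ± 0.17 (SE). Lamc1, the gamma chain, was lower within each line, at 7.13, 7.05 and 6.84 with ethanol and 6.86, 6.42 and 6.48 with the drug (limma adjusted p = 0.0897), and a second probe set gave -0.33. Lamb1 changed by 0.43, 0.39 and -0.50 and Lama5 by 0.25, 0.38 and -0.24, both above 0 in KPR4 and KPR5 and below 0 in KPR8. A second Lamb1 probe set was above 0 in KPR8 too, at 0.07. Lamb2 and Lama2 changed by 0.34 ± 0.20 and -0.11 ± 0.15.

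Col4a5, a type IV collagen chain of specialised basement membranes, read 6.73, 5.11 and 6.43 with ethanol and 7.14, 6.57 and 7.21 with 4-OH tamoxifen. KPR5 was lowest under both treatments, and its treated array was below the KPR4 vehicle array. The change was 0.88 ± 0.20 (SE) or 1.85-fold (limma adjusted p = 0.0057), made of 0.41, 1.46 and 0.78. Col18a1, whose product carries heparan sulfate chains and is the source of endostatin, read 7.99, 6.75 and 7.30 with ethanol and 8.39, 7.72 and 7.66 with the drug. Its treatments overlapped, and it rose by 0.40, 0.97 and 0.36, a mean of 0.58 ± 0.17 or 1.49-fold (adjusted p = 0.0276). Without KPR5 neither was called (0.60, adjusted p = 0.0733, and 0.38, adjusted p = 0.221), nor without KPR8 (adjusted p = 0.0573 and 0.0576). Their second probe sets were not called, with 0.22 for Col4a5 and 0.45 for Col18a1 (adjusted p = 0.422 and 0.19).

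The DNA before the start sites of these collagen genes, both called higher with the drug, is shown from RefSeq (GRCm38.p6), 5' to 3' on the strand of the gene. The Col18a1 stretch ends at the base before its upstream start site, and the Col4a5 stretch ends where the annotated gene begins. Capitals mark matches on either strand to the GC box GGGCGG or to CCAAT.
Col18a1 (chr10:77166531-77166780, minus strand): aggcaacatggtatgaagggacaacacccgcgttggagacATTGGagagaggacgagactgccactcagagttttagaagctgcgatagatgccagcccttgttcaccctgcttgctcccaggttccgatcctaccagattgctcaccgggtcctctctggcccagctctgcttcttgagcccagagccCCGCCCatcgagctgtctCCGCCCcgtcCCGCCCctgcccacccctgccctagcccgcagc
Col4a5 (chrX:141475169-141475369, plus strand): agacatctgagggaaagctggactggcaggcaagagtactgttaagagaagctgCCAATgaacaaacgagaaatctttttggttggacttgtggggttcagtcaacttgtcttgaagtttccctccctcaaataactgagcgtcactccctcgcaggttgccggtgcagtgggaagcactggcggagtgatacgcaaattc
Col18a1 has 3 GC box matches, starting at -61, -43 and -33 from the start site, and a CCAAT match at -210. Col4a5 has a CCAAT match at -196, counted from its start site at 141475419, which lies past the end of the printed stretch. Windows for 4 of the 6 called genes were searched, 6 in all. Those of Lamb3 and Itgav and a second Col18a1 window, not printed here, lie inside the annotated gene. The 6 windows held no match to the p53 half-site consensus, to the AP-1 motif TGANTCA or to TATAAA, and matches did not overlap. Of 32851 RefSeq windows of 250 bases, 7.13% held a p53 half-site, 6.75% TGANTCA, 32.7% a GC box, 33.8% a CCAAT box and 12.4% TATAAA. The arrays do not show which start site was used.

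Col4a1 and Col4a2, the chains of the most widespread type IV collagen, were not called. Col4a1 read 9.97, 10.06 and 9.76 with ethanol and 10.07, 10.19 and 9.66 with the drug. Col4a2 read 9.71, 9.90 and 9.58 and then 9.95, 10.18 and 9.50. Their changes of 0.04 ± 0.13 and 0.15 ± 0.13 (SE) were each above 0 in KPR4 and KPR5 and below 0 in KPR8, although a second Col4a1 probe set was above 0 in KPR8, at 0.43. In RefSeq these genes lie on opposite strands with start sites 21 bases apart. Col4a5 and Col4a6 are arranged likewise, 1343 bases apart, and Col4a6 stayed between 1.90 and 2.16, within the background controls. The other 7 tested collagens changed by -0.11 to 0.13. Of the type I chains, Col1a1 changed by 0.27, -0.41 and -0.20 and Col1a2 by 0.24, 0.03 and 0.11. Their second probe sets gave -0.06, -0.34 and -0.09 for Col1a1 and -0.06, -0.28 and -0.14 for Col1a2, so the probe sets disagree in sign.

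Itgav had the smallest of the called changes. It read 11.98, 11.75 and 12.22 with ethanol and 12.38, 12.12 and 12.41 with 4-OH tamoxifen, higher within each line but overlapping between lines. The change was 0.32 ± 0.09 (SE) or 1.25-fold (limma adjusted p = 0.0276), and the call was lost when KPR4 or KPR5 was left out (adjusted p = 0.229 and 0.115). Dimmer Itgav probe sets gave 0.41 and 0.00, neither called. Its beta partners Itgb5 and Itgb6 changed by 0.32 ± 0.23 and -0.20 ± 0.16, Itgb5 by 0.36, 1.06 and -0.45.

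The remaining integrins were not called. Itga3, an alpha chain that also binds the anchoring laminin, read 8.76, 9.67 and 9.90 with ethanol and 9.37, 10.24 and 9.90 with the drug. Its change of 0.39 ± 0.15 (SE, limma adjusted p = 0.0746) held 0.61 and 0.56 in KPR4 and KPR5 and 0.00 in KPR8. Without KPR8 it passed (0.59, adjusted p = 0.0303). Of its other probe sets, the brighter gave 0.33, 0.58 and -0.11, a mean of 0.27 (adjusted p = 0.374). The dimmest Itga3 probe set gave 0.08, -0.38 and 0.36, a mean of 0.02 (adjusted p = 0.971), so the probe sets disagree in KPR5 and KPR8. Itgb1, the beta chain that pairs with Itga2, Itga3, Itga5 and Itga6, read 8.87, 9.66 and 9.38 and then 8.60, 9.36 and 9.30, a change of -0.21 ± 0.14 (adjusted p = 0.301). Its other 5 probe sets gave -0.18 to 0.42, so the probe sets disagree in sign. Itga2, of a collagen receptor, and Itga5, of the fibronectin receptor, changed by 0.05 ± 0.17 and -0.10 ± 0.15.

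**Figure D2:**
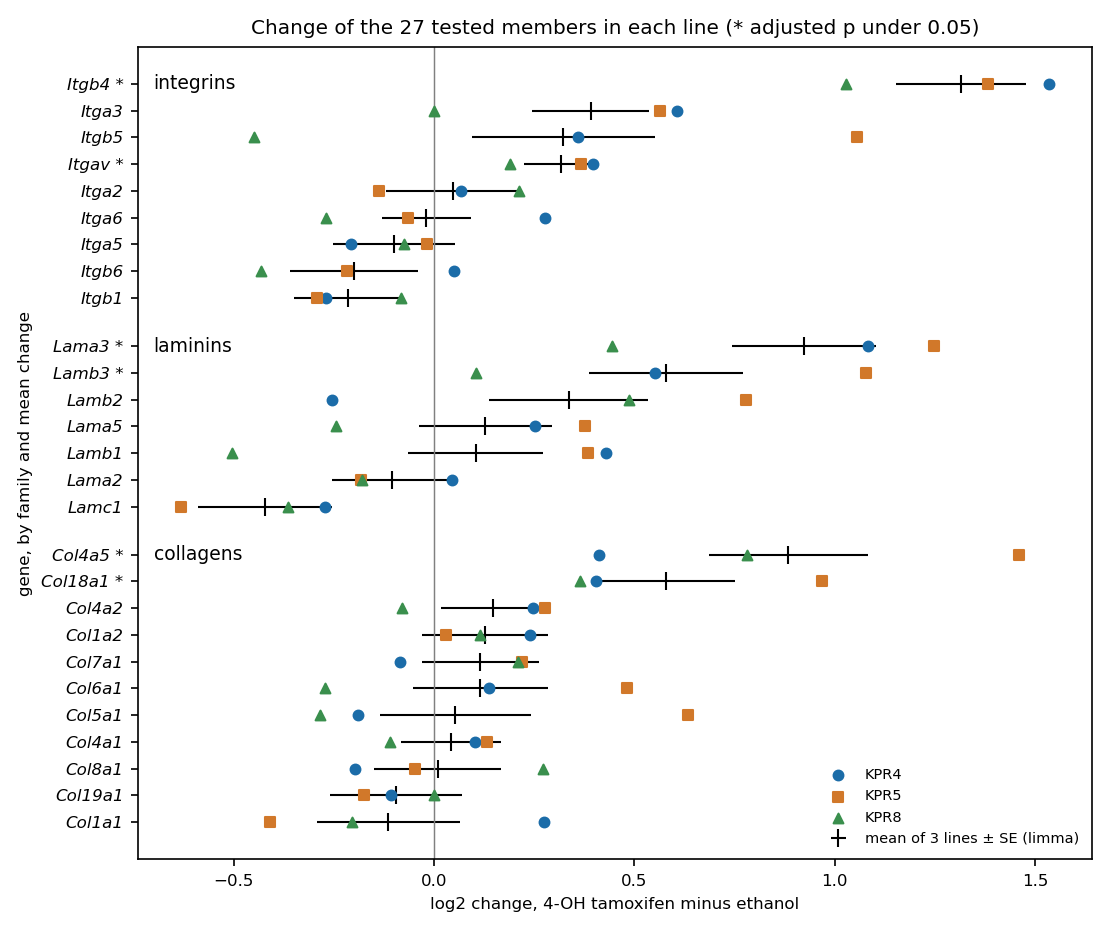
Log2 change with 4-OH tamoxifen (horizontal axis) of each of the 27 tested members (vertical axis) in KPR4, KPR5 and KPR8 (coloured points), with limma's mean and standard error in black; asterisks mark the 6 called genes. The KPR8 point is the lowest of the 3 for 15 of the 27, against 42.6% of all genes tested.

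The changes were uneven between lines, which 1 array per line and treatment does not allow to be tested. For 15 of the 27 tested members the change was lowest in KPR8, against 42.6% of all genes. For 7 members (Itgb5, Lama5, Lamb1, Col4a1, Col4a2, Col6a1 and, barely, Itga3) it was above 0 in KPR4 and KPR5 and below 0 in KPR8, against 11.8%. Not all probe sets of Lamb1, Col4a1 and Itga3 shared this pattern. The sign was the same in each line for 11 of the 27, against 51.7%. A measure of RNA integrity, the 3' minus the 5' signal of control probe sets, also moved the other way in KPR8: it changed by 0.24, 0.29 and -0.40 for Gapdh and by 0.16, 0.39 and -0.07 for Actb. Its part in these differences was not tested.

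Between lines 17 of the 27 tested members differed by limma's F-test, against 42.0% of all genes. KPR4 was the lowest line for 8 of them, Lama3, Lamb3, Itga3 and Itgb1 among them, and the highest for 6, such as Col6a1, Col1a1 and Col18a1. The line means were log2 1 or more apart for 8 members, and 5 of the 17 also rose with treatment. Itgb4 is the called gene that did not differ (adjusted p = 0.298). By pairs, 12 members differed between KPR5 and KPR4 (27.5% of all genes), 13 for KPR8 against KPR4 (30.3%) and 7 for KPR8 against KPR5 (19.2%). With KPR4 left out, 5 members differed, while the count over all genes went from 3210 to 1480, and Lama3, Itga3, Itgb1, Col6a1, Col7a1, Col8a1, Col18a1 and Col1a2 were no longer among them (adjusted p = 0.0806 to 0.878).

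**Figure D3:**
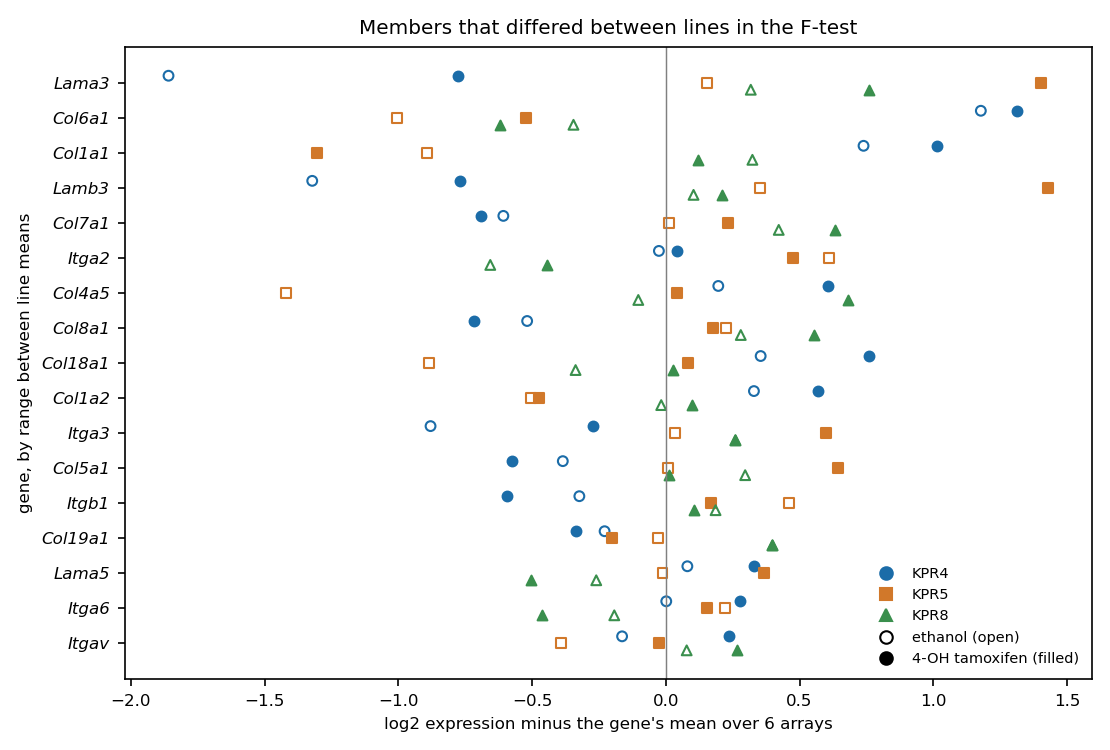
Log2 expression minus the mean of the gene over 6 arrays (horizontal axis) for the 17 members that differed between lines, ordered by the range of the line means; open symbols are ethanol and filled symbols 4-OH tamoxifen. KPR4 is low for Lama3, Lamb3, Itga3 and Itgb1 and high for Col6a1, Col1a1 and Col18a1.

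Lama3, Lamb3, Itga3 and Itgb1 were lowest in KPR4. Lama3 had line means of 6.26, 8.35 and 8.11, so that KPR5 was 4.28-fold above KPR4 (2.10 ± 0.22, SE, limma adjusted p = 6.8e-06) and KPR8 3.62-fold (1.86 ± 0.22). Lamb3 had means of 5.89, 7.83 and 7.09, higher than KPR4 by 1.94 ± 0.23 in KPR5 and 1.20 ± 0.23 in KPR8. The receptor chain Itga3 followed the same order, with 9.06, 9.95 and 9.90 and differences from KPR4 of 0.89 ± 0.18 and 0.84 ± 0.18. Of its other probe sets, the brighter also differed between lines (F-test adjusted p = 0.0229), but the dimmest did not pass (0.162). KPR8 and KPR5 did not differ detectably in Lama3 (-0.24 ± 0.22, adjusted p = 0.471) or Itga3 (-0.06 ± 0.18, adjusted p = 0.854), but Lamb3 was lower in KPR8 (-0.73 ± 0.23, adjusted p = 0.0406). Itgb1 had means of 8.74, 9.51 and 9.34 (F-test adjusted p = 0.0046), though none of its other 5 probe sets passed (adjusted p = 0.0527 to 0.771). The 7 epithelial markers had no common order: Epcam, Cldn4, Krt19, Cdh1 and Krt18 differed between lines, Epcam and Cldn4 lowest in KPR4, Krt19 and Cdh1 highest in KPR4 and Krt18 lowest in KPR8, while Krt7 and Krt8 did not pass (F-test adjusted p = 0.157 and 0.222). Epcam read 9.35 and 8.89 in KPR4 (ethanol, drug), 10.75 and 10.44 in KPR5 and 10.40 and 10.05 in KPR8. Their part in these differences was not tested.

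Itga2, Itga6 and Lama5 were instead lowest in KPR8. Itga2 had means of 5.74, 6.28 and 5.18, and KPR8 minus KPR5 was -1.09 ± 0.20 (SE, limma adjusted p = 0.0024), while neither differed from KPR4 past the threshold (adjusted p = 0.0649 and 0.0505). For Itga6 KPR8 minus KPR5 was -0.52 ± 0.14, and a second probe set had a range of 1.60 between lines. Lama5 had means of 8.30, 8.27 and 7.71 (F-test adjusted p = 0.0434) and missed the threshold when array medians were equalised (0.0611). These 3 were not called with KPR8 left out (adjusted p = 0.0602, 0.762 and 0.905). Itgav, with a range of 0.38, was not called with any 1 line left out. Among the 10 members that did not differ, Lamc1 and Col4a1 have second probe sets that did, with ranges of 1.29 and 0.96 (adjusted p = 0.0017 and 0.0067), so their probe sets disagree.

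The collagens took several orders. Col6a1, a chain of the microfibrillar type VI collagen, read 5.71 and 5.85 in KPR4 (ethanol, drug), 3.53 and 4.01 in KPR5 and 4.19 and 3.92 in KPR8. KPR4 was thus above every other array, 4.03-fold over KPR5 and 3.31-fold over KPR8 (adjusted p = 5.9e-06 and 1.8e-05 in limma). Col1a1, of type I collagen, read 7.45 and 7.73 in KPR4, 5.82 and 5.41 in KPR5 and 7.04 and 6.83 in KPR8. KPR5 was the low line, 3.93-fold below KPR4 (adjusted p = 1.2e-05) and 2.49-fold below KPR8 (adjusted p = 0.0011). Col1a2, its partner, had means of 5.47, 4.53 and 5.06, with KPR5 minus KPR4 at -0.94 ± 0.19 (SE, adjusted p = 0.0023), and did not differ without KPR5 (F-test adjusted p = 0.129). The fibroblast marker Pdgfra had another order, with 4.99 and 4.98 in KPR5 and at most 4.20 in the other lines, and the other 6 fibroblast markers did not exceed 3.91.

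Among basement membrane and anchoring collagens, Col18a1 was highest in KPR4, with means of 8.19, 7.23 and 7.48, and Col4a5 lowest in KPR5, with 6.93, 5.84 and 6.82. Col4a5 did not differ with KPR5 left out (adjusted p = 0.726 in limma). Col7a1, which forms the anchoring fibrils beneath hemidesmosomes, had means of 3.36, 4.13 and 4.54, and KPR8 minus KPR4 was 1.18 ± 0.18 (SE, adjusted p = 1.7e-04). Both KPR4 arrays were below the filter level. Col8a1, a short-chain collagen, had means of 4.00, 4.81 and 5.03 and KPR8 minus KPR4 at 1.03 ± 0.19. Col5a1 and Col19a1 were also lowest in KPR4, with ranges of 0.81 and 0.68.

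The other 40 members, 12 integrins, 3 laminins and 25 collagens, were below the filter, at 1.46 to 6.22. Of the 67 members 33 stayed under log2 4 on every array and 15 stayed below the highest background control. Among these are Itgal, Itgam and Itgax, alpha chains of leukocytes, Itgb3, a beta chain of platelets, and Col17a1, the transmembrane collagen of hemidesmosomes, at 2.04 to 2.63. Col3a1, a fibrillar collagen of fibroblasts, lay between 3.69 and 4.32. A value near background does not show that a gene was silent.

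**Figure D4:**
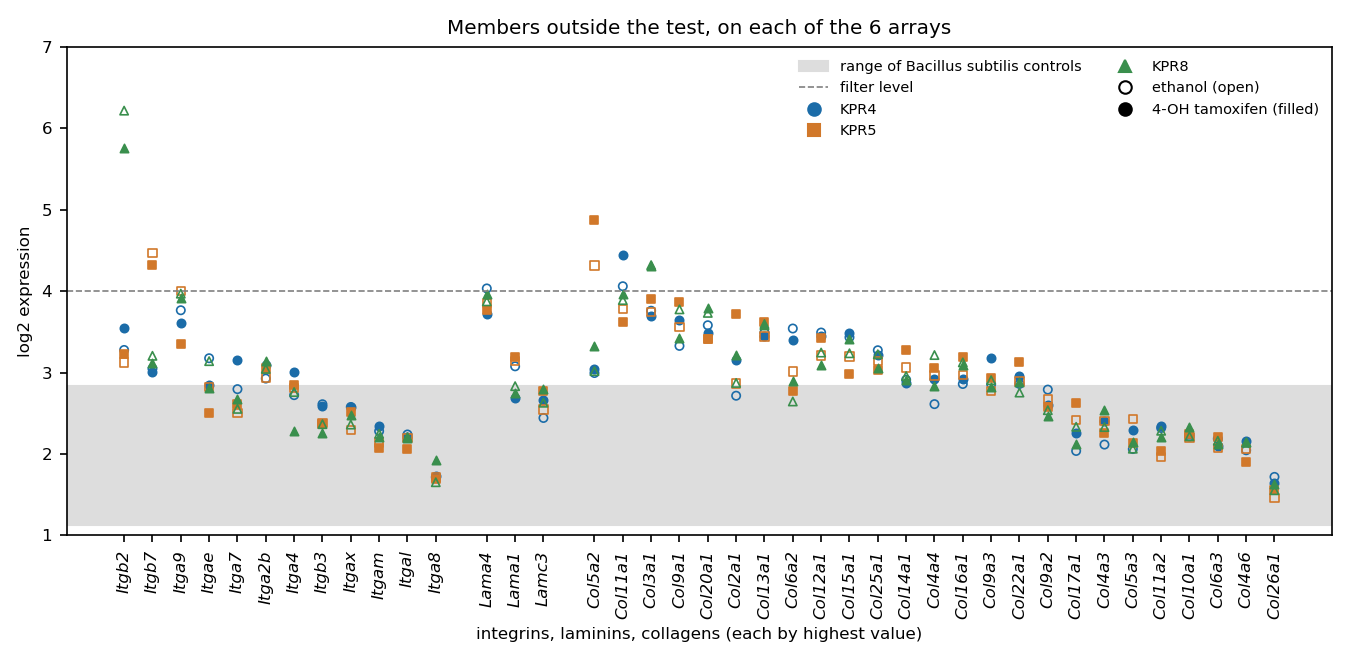
Log2 expression (vertical axis) of the 40 members outside the test on each of the 6 arrays, with the range of the Bacillus subtilis controls in grey and the filter level of log2 4 dashed. Itgb2 stands apart in KPR8, at 6.22 and 5.76, and Itgb7 and Col5a2 in KPR5.

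Some of these genes, named for their values, were high in a single line. Itgb2, the beta chain of the leukocyte integrins, read 6.22 and 5.76 in KPR8 (ethanol, drug) and at most 3.55 in the other lines. In KPR8 the leukocyte gene Ptprc was at 1.70 and 1.62, and the alpha partners Itgal, Itgam and Itgax did not exceed 2.58 on any array. Cd3e, the leukocyte marker that passed the filter, read 4.37 and 4.04 in KPR8. It read 3.88 and 4.12 in KPR4 and 3.88 and 3.53 in KPR5 (limma F-test adjusted p = 0.116). Itgb7, another leukocyte beta chain, read 4.47 and 4.32 in KPR5 and at most 3.21 elsewhere. Col5a2, a fibrillar collagen chain, read 4.31 and 4.88 in KPR5 and at most 3.32 elsewhere. In limma's fit without a filter, where 22 of the 67 members and 27.4% of all genes differed between lines, their ranges were 2.81, 1.37 and 1.58 (adjusted p = 7.9e-07, 3.7e-05 and 3.0e-05). With treatment, Col2a1, a cartilage collagen, rose in that fit by 0.55 ± 0.12 (SE, adjusted p = 0.0141), from 2.72, 2.87 and 2.87 to 3.16, 3.72 and 3.22, all below log2 4.

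Genes that work with these proteins were followed in 5 lists. Of 23 tested adaptors between integrins and the cytoskeleton 4 rose and 0 were called lower (0 at an unadjusted p under 0.05 in limma), against 10.5% and 8.94% of all genes, with a median of 0.12 against 0.00. Ptk2b, encoding the focal adhesion kinase relative PYK2, read 6.03, 6.50 and 6.49 with ethanol and 7.65, 7.75 and 7.02 with the drug, without overlap. It rose by 1.13 ± 0.20 (SE, adjusted p = 0.0011). Rsu1 and Bcar1, which encode a partner of the adaptor PINCH and the docking protein p130Cas, rose by 0.58 ± 0.15 and 0.44 ± 0.14, and Pxn, encoding paxillin, by 0.39 ± 0.12. The call of Ptk2b held with any 1 line left out, while those of Rsu1, Bcar1 and Pxn were lost without KPR4 (adjusted p = 0.0896, 0.299 and 0.331) and without KPR5 (0.0793, 0.134 and 0.0585), and that of Bcar1 also without KPR8 (0.055).

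Of 14 tested integrin ligands outside these families 4 rose and 0 were called lower (1 at an unadjusted p under 0.05 in limma), where 10.5% and 8.94% of all genes were, with a median of 0.19. Tnc, encoding tenascin C, read 5.41, 7.83 and 7.03 with ethanol and 6.65, 8.95 and 8.05 with the drug, lowest in KPR4 under both as for Lama3 and Lamb3. It rose by 1.24, 1.12 and 1.02, a mean of 1.13 ± 0.16 (SE, adjusted p = 2.0e-04). Ccn1, a matricellular ligand, and Icam1, a ligand of leukocyte integrins, rose by 0.89 ± 0.14 and 0.64 ± 0.17, and Mfge8 by 0.53 ± 0.18. Icam1 was not called without KPR5 (adjusted p = 0.115), nor Mfge8 without KPR4 or KPR5 (0.116 and 0.372). Of 8 tested basement membrane partners, such as nidogen and perlecan, limma called 0 in either direction, with 2 higher and 0 lower at an unadjusted p under 0.05 and a median of 0.13.

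Of 15 tested other receptors of collagen and laminin and their membrane partners 3 rose and 0 were called lower (1 at an unadjusted p under 0.05 in limma), where 10.5% and 8.94% of all genes were, with a median of 0.12. Cd81, a tetraspanin that associates with integrins, read 11.92, 11.61 and 11.95 with ethanol and 12.77, 12.60 and 12.82 with the drug, without overlap. It rose by 0.90 ± 0.09 (SE, adjusted p = 8.4e-06). Cd82, another tetraspanin, rose by 0.82 ± 0.17, but with its probe sets averaged the change was 0.38 and not called (adjusted p = 0.0579). Ddr1, a collagen-binding receptor kinase, rose by 0.78 ± 0.13.

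Of 17 tested genes that modify, secrete or cross-link collagen 2 rose and 1 fell, shares near the 10.5% and 8.94% of all genes, with a median of 0.05. Plod2, a lysyl hydroxylase that prepares collagen for cross-linking, read 6.63, 6.97 and 6.73 with ethanol and 7.62, 7.86 and 7.50 with the drug, without overlap. It rose by 0.88 ± 0.16 (SE, limma adjusted p = 0.0014). Bmp1, the protease that trims procollagen, rose by 0.56 ± 0.15 but was not called without KPR4 or KPR8 (adjusted p = 0.133 and 0.0677). Pcolce2, an enhancer of that trimming, changed by -0.70 ± 0.17 (adjusted p = 0.0093, and 0.0745 without KPR5).

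**Figure D5:**
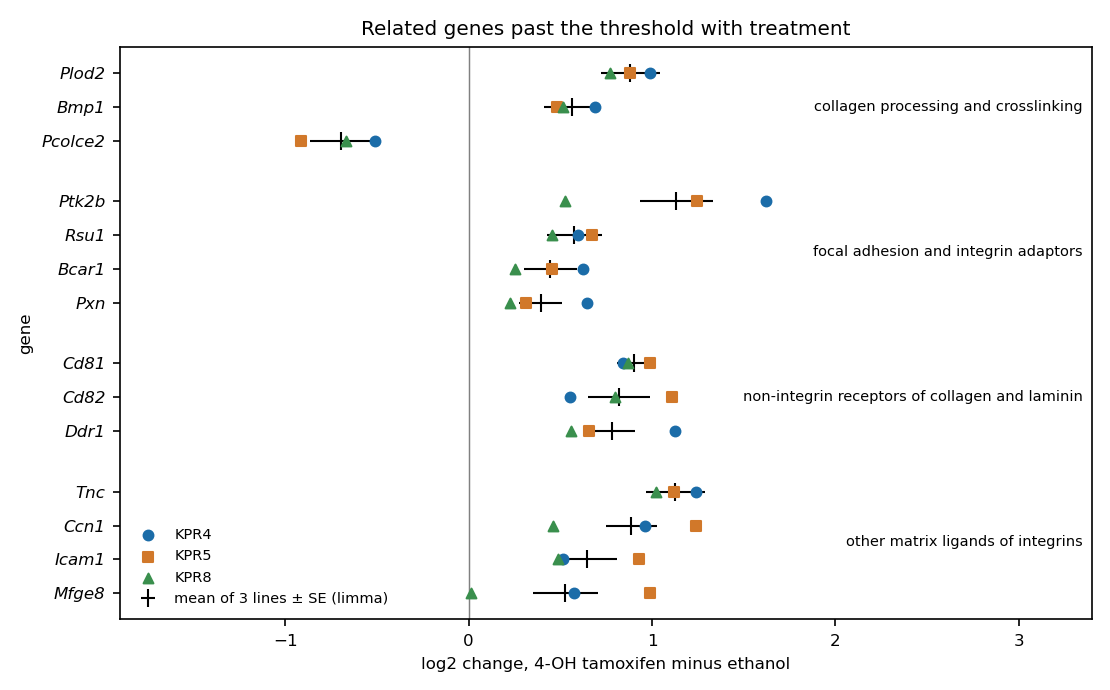
Log2 change with 4-OH tamoxifen (horizontal axis) in each line for the called genes of the related lists (vertical axis), with limma's mean and standard error in black. Every point lies above 0 except those of Pcolce2, and KPR8 has the lowest point for 10 of the 13 genes called higher. Among all genes tested, called or not, the change was lowest in KPR8 for 42.6%.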

How the data were processed

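The values analysed are log2 expression as the authors deposited it, computed with GCRMA (version 2.20.0, under R 2.11.0), per the submitters' processing notes. Which arrays entered that step together is not stated in the labels. GCRMA removes background and equalises the arrays, so a change common to most genes would not show, and the number of arrays limits the precision.

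Of 22690 probe sets 20380 have a single symbol in GEO's platform annotation, and all 67 member genes matched the GRCm38.p6 table by Entrez identifier. The tests used limma 3.58.1 in R 4.3.3 with trended moderation and Benjamini-Hochberg adjustment over 7644 genes. Moderation added 12.9 degrees of freedom to 2 residual ones. The line was a term because each line was given vehicle and drug, and the arrays of a line deviated together from the treatment means (correlations of 0.737 to 0.876). The script was tested on simulated data. Members and lists were chosen with earlier results of these data known. The genes named are the called members, the 10 largest ranges between lines, a list of anchor genes and the 3 largest called changes of each related list; any other gene was named after its values were seen. Alternatives varied the filter, probe set, moderation, centring, floor and line term, and left out each line.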

Additional observations from a re-analysis of the deposited data

How the results depend on the processing

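Of the members, 6 were called higher as reported, 3 with probe sets averaged per gene, and 2 (KPR5) to 5 with 1 line left out, and 0 were called lower under any of the 10 alternatives. With no replicate block, that is without the line term, 0 members were called higher (Itgb4 had an adjusted p of 0.0634), and limma called 22 genes higher and 1 lower over the array. In that fit 0 adaptors, 0 matrix ligands and 0 other receptors were higher, 0 collagen-modifying genes were called in either direction, and 5 of 8 p53 targets were higher. Members that differed between lines numbered 17 as reported and 5 (KPR4) to 14 with 1 line left out. Adaptors called higher numbered 2 without a filter, 2 with averaged probe sets, 2 without the trend and 1 (KPR4, KPR5) to 3 with 1 line left out. With averaged probe sets 1 matrix ligand was lower and 1 collagen-modifying gene higher; the latter numbered 1 (KPR4) to 2 with 1 line left out. Other receptors numbered 3 to 5 (KPR5) higher and 0 to 1 (KPR4) lower with 1 line left out. Of the called members, Col18a1 and Lamb3 were not called without a filter (adjusted p = 0.0510 and 0.0809), Col18a1, Lamb3 and Itgav not with averaged probe sets (0.0596, 0.0581 and 0.238), and Itgav and Lamb3 not without the trend (0.144 and 0.0525). Lamb3 has 1 probe set, and its change was 0.58 in each of these fits, so averaging did not alter its own values. The cause of the lost calls was not tested. No called change reversed. Signal near background limits Col6a1, Col7a1 and the vehicle values of Itgb4.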
